A study of Homo sapiens with 12 samples.

Results

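The mRNAs of 8 stress-linked transcription factors, ATF4, ATF3, ATF5, DDIT3 (which encodes CHOP), CEBPA, CEBPB, CEBPD and CEBPG, were followed in H446 (NCI-H446), a long-established line of human small cell lung carcinoma. They were taken by gene symbol, and all 8 were found among the 34886 symbols of the mRNA table. Cells received CAPE (caffeic acid phenethyl ester, a propolis compound known as an NF-kB inhibitor) at 40 µM, or an equal volume of the solvent dimethyl sulfoxide (DMSO), and RNA was taken after 8 h. Each group had 3 libraries, both groups were grown in serum-containing medium, and the labels name no separate cultures behind them: the p-values here reflect library-to-library spread, which may be technical. The model is 1 cell line at 1 dose and 1 time.

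All 8 proteins are basic leucine zipper (bZIP) factors, which bind DNA as dimers through a basic region and a leucine zipper. When amino acid shortage, unfolded proteins or other stresses lead to phosphorylation of the translation factor eIF2, general protein synthesis drops while ATF4 mRNA is translated more through open reading frames in its leader. ATF4 protein pairs with C/EBP proteins such as C/EBP gamma and C/EBP beta and activates genes that carry a C/EBP-ATF response element. DDIT3 and ATF3 are well-known targets of this route: CHOP forms dimers with C/EBP proteins and is linked to cell death under prolonged stress, and ATF3 is an early stress factor that can repress or activate genes. ATF4 and ATF5 are controlled to a large extent at translation, so their mRNA is only part of their regulation, and no protein was measured here.

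Start-site sequences are shown for the 3 members that rose in the fit of all 6 libraries, ATF3, DDIT3 and CEBPG. They come from RefSeq (GRCh38.p14), are written 5′ to 3′ on the strand of the gene, and end before the annotated start. The motifs searched on both strands in the 250 bases before each annotated start were the C/EBP-ATF response element TGATGNAA, the cyclic AMP response element TGACGTCA, the AP-1 site TGANTCA, the CCAAT box and the palindromic C/EBP site TTGCGCAA. Capitals mark matches: TGATGNAA and CCAAT in ATF3, CCAAT and TGANTCA in DDIT3, and TGATGNAA in CEBPG.
ATF3, chr1:212565157-212565406, plus strand, 250 bases before the upstream start: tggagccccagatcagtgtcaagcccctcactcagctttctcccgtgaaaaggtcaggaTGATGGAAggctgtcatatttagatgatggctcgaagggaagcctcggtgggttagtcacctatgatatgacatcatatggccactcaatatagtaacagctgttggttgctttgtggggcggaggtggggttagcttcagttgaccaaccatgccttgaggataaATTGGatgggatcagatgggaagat
DDIT3, chr12:57520518-57520714, minus strand, 197 bases before the start: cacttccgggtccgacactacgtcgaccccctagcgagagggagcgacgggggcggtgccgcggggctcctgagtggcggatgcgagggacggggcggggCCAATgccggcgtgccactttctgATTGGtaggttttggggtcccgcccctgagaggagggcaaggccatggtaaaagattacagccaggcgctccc
DDIT3, chr12:57520736-57520765, minus strand, the AP-1 match further upstream: cgcgcgcgcaTGACTCAcccacctcctccg
CEBPG, chr19:33374060-33374089, plus strand, before the downstream start: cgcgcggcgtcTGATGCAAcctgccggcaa

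The CEBPG match TGATGCAA began 42 bases before the downstream of its annotated starts, and the ATF3 match TGATGGAA began 191 bases before the upstream of its starts. The window of the other ATF3 start searched, at position 212615018 of chromosome 1, held none of the motifs. The window of the upstream CEBPG start held CCAAT but no TGATGNAA. TGATGNAA was found in 3.15% of 34943 annotated start windows and the stricter TGATGCAA in 0.776%. TGANTCA was found in 6.59% and CCAAT in 32% of them. The DDIT3 AP-1 match began 238 bases before the start and lies past the start of the neighbouring gene MBD6, at position 57520715 of chromosome 12. A TGANTCA match also stood 188 bases before 1 start of ATF5. No window of ATF4, CEBPA or CEBPB held TGATGNAA, TGACGTCA, TGANTCA or TTGCGCAA, which says only that these letters were not in those windows, and CEBPD was not searched.

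The libraries held 17569997 to 20917508 estimated counts, the most in DMSO 3, and 1 library, DMSO 3, stood apart from the other 5. Its scaling factor (TMM, edgeR's correction for a library's composition) was 0.699 against 1.07 to 1.09, and 16207 genes were detected in it against 17864 to 18587. Set against the mean of the other 2 DMSO libraries, DMSO 3 differed by 2-fold or more for 2396 genes downward and 2691 genes upward, among 13595 tested. Fold changes, calls and the order of levels are therefore given with and without DMSO 3. Among markers of small cell lung cancer and neuroendocrine cells, 3 of 12 reached 1 TPM (the authors' abundance unit, scaled to transcript length and library, with deposited sums of 928267 to 947906 per library) in every library, namely YAP1, ENO2 and UCHL1. NEUROD1, INSM1, CHGA and NCAM1 lay between 0 and 0.369 TPM in all 6, so these neuroendocrine markers were near absent. The 5 epithelial markers were mixed: the keratins KRT8 and KRT18 were abundant, and KRT19 lay at 20.5 to 39.1 TPM. EPCAM lay at only 1.16 to 2.96 TPM, and CDH1, at 0.0364 to 0.194 TPM, was near absent too. The 12 markers of small cell lung cancer and neuroendocrine cells summed to 57.3 to 121 TPM in DMSO and 223 to 224 TPM in CAPE, with no overlap. This separation reflected ENO2, which went from 31.1, 28.7 and 18.1 TPM to 134, 134 and 144 TPM. YAP1 overlapped between the groups, at 67.6, 73.6 and 14.3 TPM in DMSO and 62.2 to 70.5 TPM in CAPE. UCHL1 overlapped too, between 15.7 and 24.3 TPM over all 6 libraries. The remaining markers of this list lay at or under 0.547 TPM in every library, so the sum does not show a general rise of neuroendocrine markers. The 5 epithelial markers summed to 1315 to 2591 TPM in DMSO and 1149 to 1211 TPM in CAPE. The 5 leukocyte markers summed to 0.196 to 1.07 TPM in DMSO and 1.22 to 2.45 TPM in CAPE, with CD3E at 0. The 4 endothelial markers summed to 1.58 to 4.06 and 1.10 to 3.46 TPM, with KDR at 0, and the 5 fibroblast markers to 13.4 to 48.3 and 47.9 to 56.8 TPM. The part of these levels in the results was not tested.

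With CAPE 3 of the 8 transcription factor mRNAs rose: ATF3 by 6.78-fold, DDIT3 by 4.59-fold and CEBPG by 2.14-fold. No member passed as lower, 4 tested members (ATF4, ATF5, CEBPB and CEBPD) did not pass, and CEBPA had too few counts to be tested. Across all genes tested, 1.49% passed as higher and 0.456% as lower (1.95% in either direction) in edgeR's quasi-likelihood test with a Benjamini-Hochberg adjusted p under 0.05. Without DMSO 3, 4 of 7 tested members were higher, ATF4 being the added one, and ATF5 was lower, but in that fit 20.4% of all genes passed as higher and 20.8% as lower (41.2% in all). The median log2 fold change of the 7 members was -0.03, and 0.52 without DMSO 3, against -0.01 and 0.00346 for all genes tested. In CPM (counts scaled to TMM-corrected library size) the CAPE libraries all lay above the DMSO libraries for 3 members and all below for 1, ATF5, while 21.3% and 20.6% of all genes showed such a separation. Without DMSO 3 these counts were 4 and 1, against 31.4% and 30.8% of all genes.

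**Figure D1:**
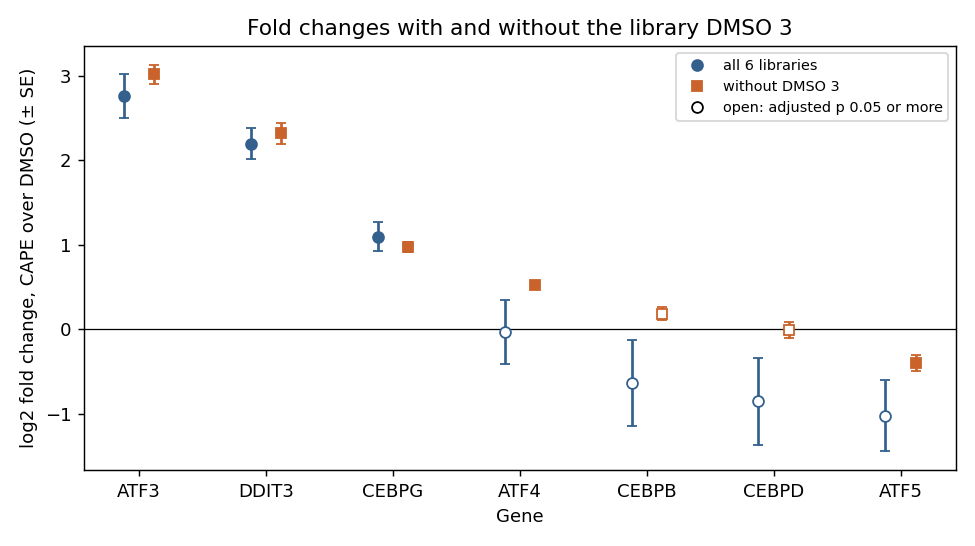
Log2 fold change (CAPE over DMSO) ± SE of the 7 tested mRNAs, from all 6 libraries (circles) and without DMSO 3 (squares), filled where the adjusted p is under 0.05. ATF3, DDIT3 and CEBPG lie above 0 and are filled in both fits, while ATF4 and CEBPB move from below to above 0 when DMSO 3 is left out.

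ATF3, the stress-induced bZIP factor at chromosome 1, 212565407 to 212620777 (GRCh38.p14), had the largest rise of the members. It measured 6.95, 5.53 and 9.99 CPM in DMSO 1 to 3 and 51.6, 46.5 and 54.0 CPM in CAPE 1 to 3. The groups were far apart, with all 3 DMSO libraries low and all 3 CAPE libraries high, and whether more cells or more RNA per cell carried the rise cannot be told apart in bulk RNA. Its log2 fold change was 2.76 (SE 0.26, edgeR adjusted p = 0.0135), which ranked 53 of 13595 genes. Without DMSO 3 it was 3.02 (SE 0.11, adjusted p = 2.79e-11) and ranked 65 of 13919. The call was lost when any 1 of the other 5 libraries was left out (adjusted p = 0.0680 to 0.132, log2 fold change 2.58 to 2.84). Those 5 fits called only 0 to 17 genes in all. In the authors' TPM, ATF3 stood at 7.53, 7.76 and 4.11 in DMSO and 62.7, 57.8 and 62.4 in CAPE, so DMSO 3 was the highest DMSO library in CPM and the lowest in TPM. Its mean transcript length, read as count per TPM relative to the median gene, was 0.676, 0.523 and 0.802 in DMSO and 0.601 to 0.643 in CAPE.

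DDIT3, which encodes the C/EBP dimer partner CHOP, lies at chromosome 12, 57516588 to 57520517, and was low in DMSO. It measured 4.53, 4.33 and 5.68 CPM in DMSO, from 86, 83 and 83 counts. In CAPE it measured 20.3, 23.7 and 22.5 CPM, from 385, 447 and 441 counts. All CAPE libraries lay above all DMSO libraries, and in CPM DMSO 3 was a little above the other 2. In TPM, DDIT3 stood at 10.7, 10.4 and 6.48 in DMSO and 47.7, 55.7 and 52.0 in CAPE. As for ATF3, DMSO 3 was thus the highest DMSO library in CPM and the lowest in TPM. The log2 fold change was 2.20 (SE 0.18, edgeR adjusted p = 0.0106), rank 108 of 13595, and 2.32 (SE 0.12, adjusted p = 1.51e-09) without DMSO 3. Leaving out any 1 of the other 5 libraries lost this call too (adjusted p = 0.0712 to 0.129, log2 fold change 2.11 to 2.25). Again, those fits called only 0 to 17 genes in all. RefSeq places MARS1 and the protein-coding LOC128125814 over parts of DDIT3, and how such reads were divided is not given in the sources used here.

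CEBPG encodes C/EBP gamma, a short C/EBP protein without an activation domain of its own that is a known partner of ATF4. The gene lies at chromosome 19, 33373709 to 33382686. Its mRNA measured 40.1, 40.3 and 30.4 CPM in DMSO and 77.1, 78.2 and 81.7 CPM in CAPE. The groups did not overlap, and DMSO 3 was the lowest library. The log2 fold change was 1.10 (SE 0.17, edgeR adjusted p = 0.0372), rank 673 of 13595, and 0.97 (SE 0.06, adjusted p = 8.00e-09) without DMSO 3. Like the other 2 calls, it was lost when any 1 of the other 5 libraries was left out (adjusted p = 0.129 to 0.253). Those fits called only 0 to 17 genes in all. This was the weakest of the 3 calls, passing under 4 of 16 alternative settings against 10 each for ATF3 and DDIT3. The CEBPG fold change lay between 0.97 and 1.48 on the log2 scale in all 16.

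ATF4, the central factor of the integrated stress response, lies at chromosome 22, 39520559 to 39522686, and its result turned on 1 library. It measured 359, 366 and 878 CPM in DMSO and 531, 512 and 525 CPM in CAPE. DMSO 1 and DMSO 2 lay below every CAPE library and DMSO 3 above them all. The log2 fold change was -0.03 (SE 0.38, edgeR adjusted p = 0.964) with all 6 libraries, and without DMSO 3 it was 0.52 (SE 0.04, adjusted p = 6.57e-08), 1.44-fold. Per length the groups did not overlap even with DMSO 3, at 449, 462 and 536 TPM in DMSO and 666, 637 and 653 TPM in CAPE. Limma on log2(TPM + 1), where the median of all genes itself lay at 0.33, gave 0.44 (SE 0.12, adjusted p = 0.208). The adjusted p over all 16 alternatives ran from 6.57e-08 to 0.995, and ATF4 passed in 2 of them, which leave out DMSO 3 or give it little weight. Its 4 listed pseudogenes had at most 1 count each in any library.

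ATF5, a relative of ATF4 with a similarly translation-controlled protein, lies at chromosome 19, 49928906 to 49933935. It measured 23.2, 22.7 and 60.6 CPM in DMSO and 19.4, 16.1 and 16.8 CPM in CAPE. Every CAPE library was below every DMSO library, by a narrow margin for DMSO 1 and DMSO 2 and by a wide one for DMSO 3. The log2 fold change of -1.02 (SE 0.42) did not pass (edgeR adjusted p = 0.309). Without DMSO 3 it was smaller, -0.40 (SE 0.10), and passed (adjusted p = 0.00372), in a fit where 20.8% of genes were lower. ATF5 did not pass in 14 of the 16 alternatives (adjusted p = 0.00323 to 0.646 over all 16), and its fold change was below 0 in every one. The starts of IL4I1 and NUP62 overlap the ATF5 gene in RefSeq.

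CEBPB and CEBPD encode C/EBP beta and C/EBP delta, factors of acute-phase, inflammatory and adipocyte gene programs. CEBPB, at chromosome 20, 50190583 to 50192690, measured 61.0, 59.9 and 200.4 CPM in DMSO and 73.6, 60.0 and 72.9 CPM in CAPE. Its libraries lay between 59.9 and 73.6 CPM apart from DMSO 3, and the groups overlapped. The log2 fold change was -0.64 (SE 0.50, edgeR adjusted p = 0.466), and 0.18 (SE 0.08, adjusted p = 0.0774) without DMSO 3, and it passed in none of 16 alternatives (adjusted p = 0.0774 to 0.916). CEBPD, at chromosome 8, 47736913 to 47738164, measured 26.8, 25.4 and 88.4 CPM in DMSO and 29.3, 23.8 and 24.6 CPM in CAPE. It overlapped in the same way, with DMSO 3 alone high. The log2 fold change was -0.85 (SE 0.52, edgeR adjusted p = 0.373), and -0.01 (SE 0.09, adjusted p = 0.931) without DMSO 3, and it passed in none of 16 alternatives (adjusted p = 0.248 to 0.931). RefSeq places the noncoding gene CEBPB-AS1 over part of CEBPB, and that symbol was not found in the mRNA table.

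CEBPA encodes C/EBP alpha, a differentiation factor of liver, fat and myeloid cells, and lies at chromosome 19, 33299934 to 33302534. It had 1, 1 and 3 counts in DMSO and 8, 3 and 2 counts in CAPE, did not pass the filter on low counts and was not tested. At this depth no difference was detectable, and no fold change is given. CEBPE, the myeloid C/EBP member, had 1 count in DMSO 2 and 0 in the other 5 libraries.

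**Figure D2:**
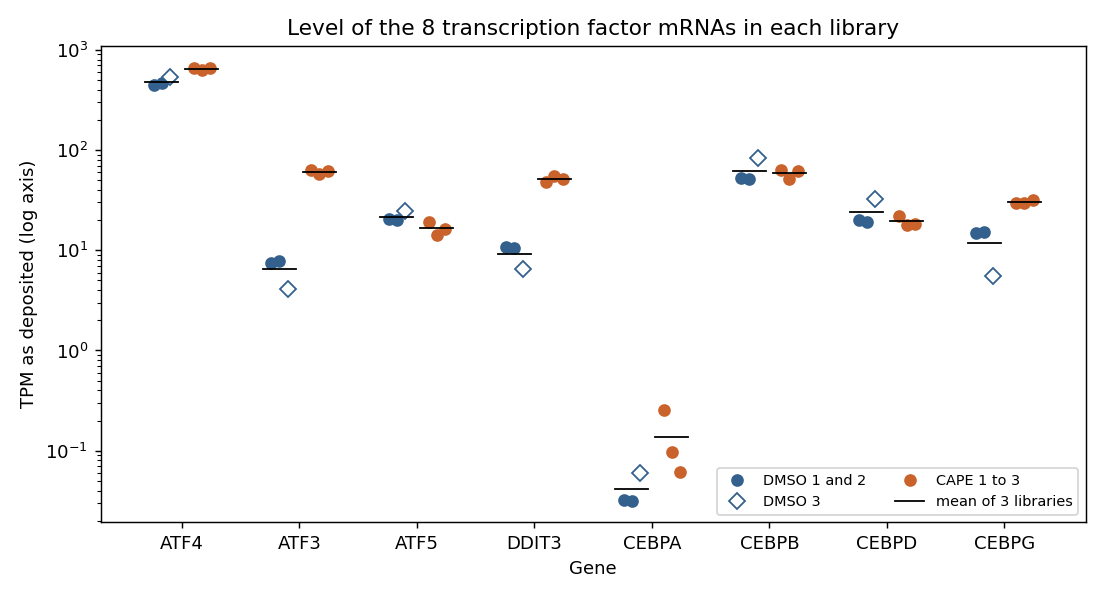
TPM of the 8 mRNAs in each library on a log axis, with DMSO in blue (DMSO 3 as an open diamond), CAPE in orange and bars for the mean of 3 libraries. ATF3, DDIT3 and CEBPG shift upward in all 3 CAPE libraries, ATF4 is the most abundant member throughout, and CEBPA stays at or under 0.256 TPM.

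In TPM, which allows genes to be compared per length, ATF4 was by far the most abundant member in both groups, at 483 ± 47.1 TPM in DMSO and 652 ± 14.6 TPM in CAPE (SD, n = 3). It ranked 250 to 263 among all symbols in DMSO and 168 to 172 in CAPE. In DMSO the order below it was CEBPB (62.2 ± 17.8 TPM), CEBPD (23.8 ± 7.22), ATF5 (21.7 ± 2.77), CEBPG (11.9 ± 5.55), DDIT3 (9.19 ± 2.35), ATF3 (6.47 ± 2.04) and CEBPA (0.0412 ± 0.0163). The neighbours CEBPD and ATF5, CEBPG and DDIT3, and DDIT3 and ATF3 overlapped over their libraries. In CAPE the order was ATF3 (60.9 ± 2.75 TPM), CEBPB (58.8 ± 6.69), DDIT3 (51.8 ± 4.02), CEBPG (30.2 ± 1.06), CEBPD (19.5 ± 2.29), ATF5 (16.6 ± 2.54) and CEBPA (0.138 ± 0.104). There ATF3 and CEBPB, CEBPB and DDIT3, and CEBPD and ATF5 overlapped. Without DMSO 3 the DMSO order was the same except that ATF5 (20.1 TPM) and CEBPD (19.7 TPM), which overlapped, changed places, and no other neighbours overlapped. ATF3 thus stood 7th of 8 with DMSO and 2nd with CAPE, level with CEBPB.

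The proportions of the members within a library also differed between the groups. For every 100 TPM of ATF4 there were 1.68, 1.68 and 0.766 TPM of ATF3 in DMSO 1 to 3 and 9.41, 9.07 and 9.55 in CAPE 1 to 3. DDIT3 stood at 2.38, 2.26 and 1.21 TPM per 100 TPM of ATF4 in DMSO and at 7.16, 8.75 and 7.96 in CAPE. CEBPG was at 28.8, 29.4 and 6.63 TPM per 100 TPM of CEBPB in DMSO and at 46.6, 58.3 and 50.5 in CAPE. These ratios did not overlap between the groups, and DMSO 3 was lower in each than the other DMSO libraries. The 8 members summed to 575 to 692 TPM in DMSO and 864 to 911 TPM in CAPE, of which ATF4 made up 77.5 to 78.8% and 72.9 to 73.8%. Among 53 bZIP genes they held 33.0, 33.9 and 49.0% of the summed TPM in DMSO and 36.8 to 37.4% in CAPE, so DMSO 3 was the highest library there.

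**Figure D3:**
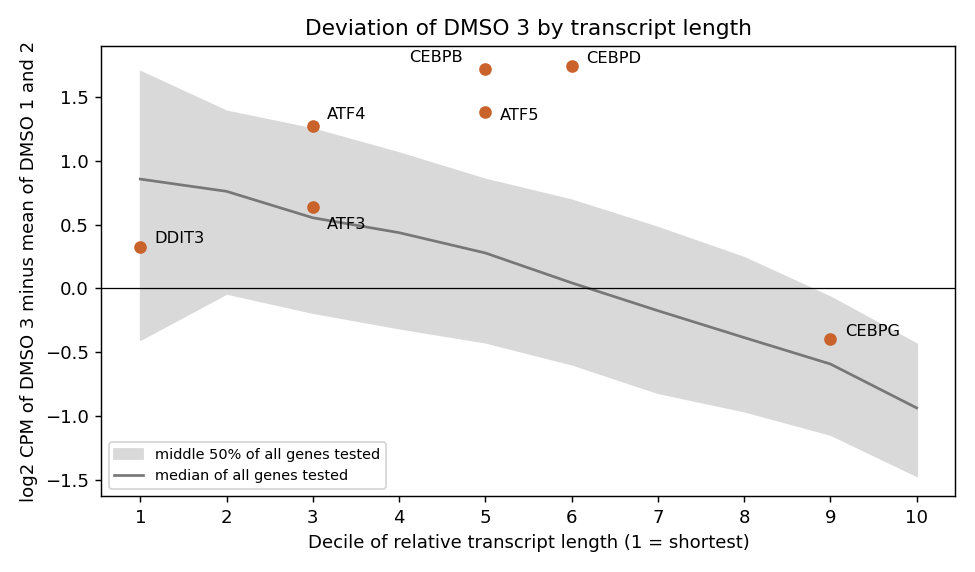
Log2 CPM of DMSO 3 minus the mean of DMSO 1 and DMSO 2 against the decile of relative transcript length, as the median (line) and interquartile range (band) of all tested genes and as points for the 7 tested members. The line falls from 0.86 in the shortest decile to -0.94 in the longest, and ATF5, CEBPB and CEBPD lie well above the band, with ATF4 at its upper edge.

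The deviation of DMSO 3 differed among the members. Over all genes it depended on relative transcript length, with a median of 0.86 on the log2 scale in the shortest decile and -0.94 in the longest. DDIT3, in the shortest decile, deviated by 0.33, ATF3 by 0.64 and CEBPG, in decile 9, by -0.40, at percentiles 53.1, 39.0 and 59.8 of their deciles for ATF3, DDIT3 and CEBPG. ATF4 deviated by 1.27, at percentile 76.8 of its decile. ATF5, CEBPB and CEBPD deviated by 1.38, 1.72 and 1.74, at percentiles 92.3, 99.0 and 99.6 of theirs, further than most genes of like length. The 4 members that did not pass with all 6 libraries were thus the 4 with the largest deviations in DMSO 3, and the cause of that library's deviation was not tested.

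The genes that control eIF2 phosphorylation showed no passing member with all 6 libraries, in a fit where only 1.95% of all genes passed. Of 21 tested genes for eIF2 kinases, eIF2 and eIF2B subunits and their phosphatase, 0 passed in edgeR's test with all 6 libraries, where 4 were higher and 1 lower at an unadjusted p under 0.05. Over all genes 9.54% were higher and 6.52% lower at that unadjusted threshold. DESeq2 called 2 of the list and limma with quality weights 11, against 5.43% and 41.1% of all genes tested by each. Their median log2 fold change was -0.25, against -0.01 for all genes. PPP1R15A, which encodes the stress-induced eIF2 phosphatase subunit GADD34, had the smallest p. It measured 28.3, 26.8 and 51.2 CPM in DMSO and 80.0, 80.9 and 78.6 CPM in CAPE (log2 fold change 1.17, SE 0.28, edgeR adjusted p = 0.125). Its groups did not overlap, with DMSO 3 nearest to CAPE, and without DMSO 3 it rose by 1.53 on the log2 scale (SE 0.06, adjusted p = 9.30e-11, and up to 0.464 over its 16 alternatives). Without DMSO 3, this list held 4 higher and 9 lower genes of 21, and its median was -0.11. Against 20.4% higher and 20.8% lower over all genes in that fit, the count of higher genes is near the background. The count of lower genes is above it, and whether the list differs as a set was not tested.

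Of the target genes of ATF4 and CHOP, enzymes, transporters and stress proteins, 26 were tested. Of these 9 passed as higher and 0 as lower (16 and 0 at an unadjusted p under 0.05, and 14 and 25 calls in DESeq2 and in limma with quality weights), with a median log2 fold change of 0.93 against -0.01 for all genes. The shares of all genes were 1.49% and 0.456% (9.54% and 6.52% unadjusted), and 5.43% and 41.1% in DESeq2 and limma. All 27 tested without DMSO 3 were higher, against 20.4% of all genes, with a median of 1.16. The gene added there, FGF21, had 0 counts in each DMSO library and 7, 17 and 14 in CAPE 1 to 3. It passed the filter on low counts through the CAPE libraries alone, so its direction was fixed in advance and only the other 26 are informative. The list had a median deviation of 0.81 in DMSO 3, so many of its genes were high in that DMSO library as well. ADM2, a secreted peptide of the calcitonin family, measured 2.58, 3.03 and 3.21 CPM in DMSO and 25.2, 24.96 and 25.9 CPM in CAPE, and was tightly grouped in both (log2 fold change 3.11, SE 0.17, edgeR adjusted p = 0.00284). STC2, a secreted glycoprotein, measured 190.4, 192.5 and 189.6 CPM in DMSO and 701, 637 and 737 CPM in CAPE (1.86, SE 0.15, edgeR adjusted p = 0.00906). Both kept DMSO 3 level with the other DMSO libraries. The count of 9 fell to 0 or 1 when any library other than DMSO 3 was left out, in fits that called 0 to 17 of all genes.

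**Figure D4:**
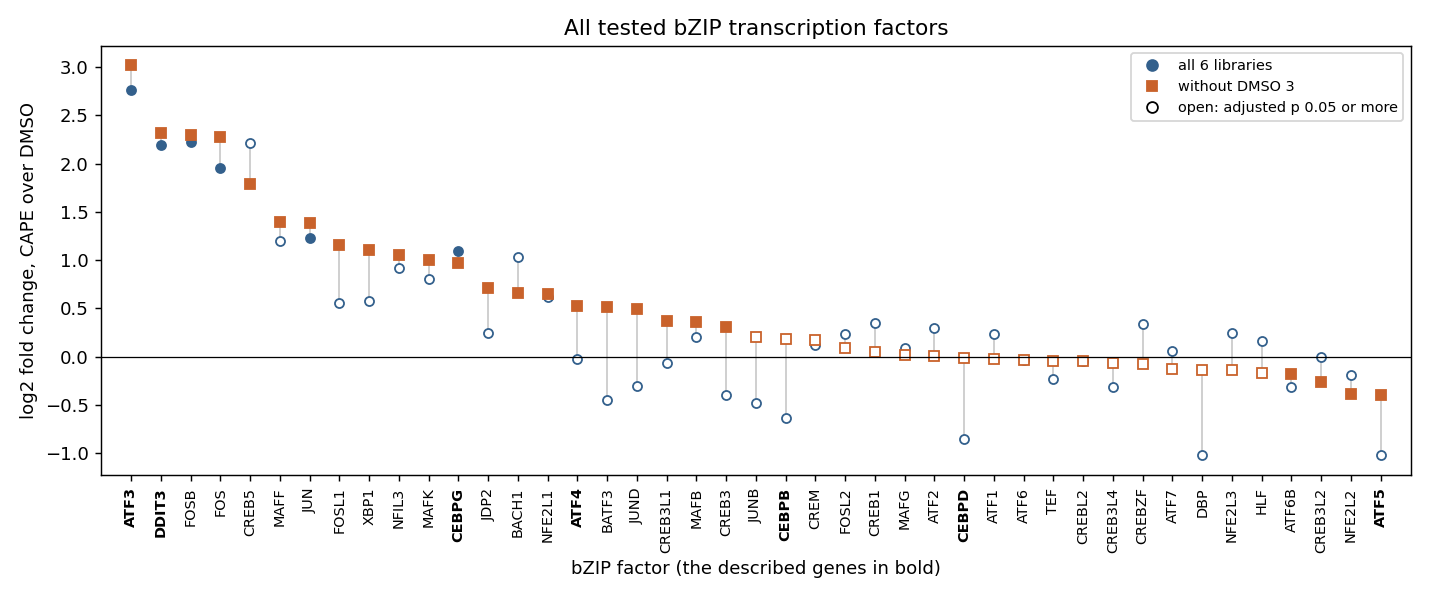
Log2 fold change (CAPE over DMSO) of every tested bZIP factor, ordered by the fit without DMSO 3 (squares), with the fit of all 6 libraries (circles); filled symbols have an adjusted p under 0.05 and the described genes are in bold. ATF3 and DDIT3 lie at the high end beside FOSB and FOS, CEBPG among the moderate rises, and ATF5 at the low end.

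Among the other bZIP factors, which include possible dimer partners of the 8, 3 of 36 tested passed as higher and 0 as lower (9 and 0 at an unadjusted p under 0.05, and 7 and 20 calls in DESeq2 and in limma with quality weights), with a median of 0.22. Of all genes, 1.49% and 0.456% passed (9.54% and 6.52% unadjusted), and DESeq2 called 5.43% and limma with quality weights 41.1%. All 3 passing bZIP factors are AP-1 subunits: FOSB, FOS and JUN. The other FOS and JUN family genes did not pass: FOSL1 (log2 fold change 0.55), FOSL2 (0.23), JUNB (-0.48) and JUND (-0.31). These too were named after their values were seen. FOSB measured 2.48, 2.30 and 2.80 CPM in DMSO and 13.0, 10.6 and 11.6 CPM in CAPE (log2 fold change 2.22, SE 0.19, edgeR adjusted p = 0.0106). FOS measured 3.21, 2.61 and 5.198 CPM in DMSO and 14.04, 13.5 and 15.0 CPM in CAPE (1.95, SE 0.29, edgeR adjusted p = 0.0335). JUN, named after its values were seen, measured 55.7, 57.2 and 77.4 CPM in DMSO and 147, 140.0 and 157 CPM in CAPE (1.22, SE 0.18, edgeR adjusted p = 0.0355). For all 3 the CAPE libraries lay above every DMSO library. The count of 3 fell to 0 when any library other than DMSO 3 was left out, in fits that called 0 to 17 of all genes. Without DMSO 3, 17 of 36 were higher and 3 lower (median 0.19), against 20.4% and 20.8% of all genes. The 3 lower genes were ATF6B (-0.18), CREB3L2 (-0.26) and NFE2L2, the antioxidant factor NRF2 (-0.39), named after their values were seen.

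Genes whose products control the stability or activity of ATF4 and C/EBP proteins had 0 of 10 tested passing in edgeR's test with all 6 libraries (3 higher and 0 lower at an unadjusted p under 0.05, 2 calls in DESeq2 and 5 in limma with quality weights, median 0.65). Among all genes only 1.49% passed as higher and 0.456% as lower, and 9.54% and 6.52% did so unadjusted. DESeq2 called 5.43% of all genes and limma with quality weights 41.1%. EGLN3, a prolyl hydroxylase reported to act on ATF4, had the smallest p, at 20.5, 20.2 and 30.6 CPM in DMSO and 52.5, 52.0 and 50.1 CPM in CAPE (log2 fold change 1.12, SE 0.21, edgeR adjusted p = 0.0635). Its groups did not overlap. Without DMSO 3, 5 of the 10 were higher and 0 lower, against 20.4% and 20.8% of all genes: TRIB3, a pseudokinase that binds ATF4 and CHOP (1.53), EGLN3 (1.34), TRIB1 (0.75), GSK3B (0.39) and COP1, listed as RFWD2 (0.23). Apart from EGLN3 they were named after their values were seen. TRIB3, which also counts among the target genes, measured 38.3, 45.1 and 132 CPM in DMSO and 129, 116 and 119 CPM in CAPE, so DMSO 3 lay at the level of the CAPE libraries.

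Of 16 known C/EBP targets of liver, myeloid cells and the acute phase, 8 passed the filter on low counts. Of these 2 passed as higher and 0 as lower (3 and 0 at an unadjusted p under 0.05, and 3 and 5 calls in DESeq2 and in limma with quality weights), with a median of -0.01. The shares of all genes were 1.49% and 0.456% (9.54% and 6.52% unadjusted), and 5.43% and 41.1% in DESeq2 and limma. IL6, the acute-phase cytokine, measured 23.5, 23.3 and 25.6 CPM in DMSO and 48.8, 44.2 and 51.3 CPM in CAPE (log2 fold change 0.996, SE 0.14, edgeR adjusted p = 0.0315). CXCL8, a neutrophil chemokine, measured 168, 192 and 117 CPM in DMSO and 439.9, 380.1 and 488 CPM in CAPE (1.45, SE 0.23, edgeR adjusted p = 0.0414). The groups did not overlap for either gene, and both calls were lost when any library other than DMSO 3 was left out and in all 3 TPM fits. The fits with such a library left out called only 0 to 17 of all genes. IL6 passed in 6 and CXCL8 in 5 of 16 alternatives. Without DMSO 3 the list had 4 higher genes, 1 lower gene and a median of 0.31, again against 20.4% and 20.8% of all genes, adding PTGS2 (1.01) and PPARG (0.36) as higher and SAA2 (-0.38) as lower, named after their values were seen. SAA2 may share reads with its near-identical neighbour SAA1. A last list held 12 symbols, of which 6 were in the mRNA table. The transcripts listed as adjacent to members, such as CEBPB-AS1, were not found. Those found were the 4 ATF4 pseudogenes, which were not tested, and CEBPZ and CEBPZOS. CEBPZ and CEBPZOS share a name stem with the C/EBP genes but lie beside none of them. Of these 2 tested genes 0 passed in edgeR's test with all 6 libraries (0 at an unadjusted p under 0.05, 0 calls in DESeq2 and 1 in limma with quality weights). Without DMSO 3, CEBPZ passed as lower (log2 fold change -0.60, SE 0.06, edgeR adjusted p = 1.25e-06), where 20.8% of all genes did.

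The genes whose log2 CPM, centred on their own mean, lay nearest to a member over the 6 libraries were sought among 9841 genes with a mean log2 CPM of at least 3. For ATF3 they were CHAC1 and ADM (Euclidean distances 0.494 and 0.541), and for DDIT3 ENO2 and IFIT3 (0.286 and 0.305). For CEBPG they were ULK1 and PIAS2 (0.124 and 0.156), and for ATF4 the nearest was PFKP (0.0888). ATF5 lay nearest to TUBB2A and NUDT2 (0.0961 and 0.0981), CEBPB to MSRB1 and TRIM7 (0.114 and 0.120) and CEBPD to RNH1 and RPP25 (0.0894 and 0.102). Among the members themselves CEBPB and CEBPD were the closest pair (0.320), and ATF3 lay nearer to DDIT3 (0.852) than to any other member. These distances depended on DMSO 3: without it, 3 of the 14 nearest genes were still among the 2 nearest to their member. CEBPB and CEBPD (0.290) were also the closest pair of members without it, and ATF3 lay at 0.848 from DDIT3.

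**Figure D5:**
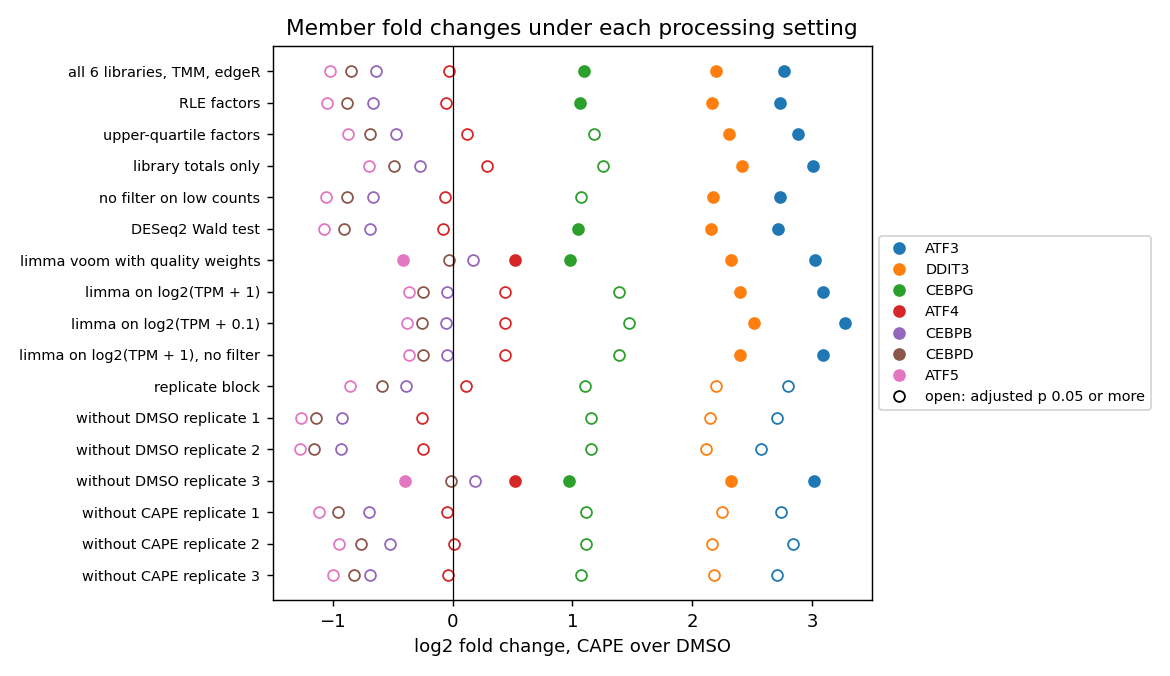
Log2 fold change (CAPE over DMSO) of the 7 tested members under the reported fit and its 16 alternatives, 1 row per setting, filled where the adjusted p is under 0.05. ATF3, DDIT3 and CEBPG stay at or above 0.97 in every row, ATF5 and CEBPD stay below 0, and ATF4 and CEBPB lie on both sides of 0.

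Across the 16 alternatives ATF3 lay between 2.58 and 3.27 and DDIT3 between 2.11 and 2.51 on the log2 scale, and each passed in 10 of them. CEBPG, ATF3 and DDIT3 were above 0 and ATF5 and CEBPD below 0 in all 16, while ATF4 was above 0 in 9 and CEBPB in 2.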

How the data were processed

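The members and lists were chosen with earlier results of these data known. The authors deposited estimated counts per gene symbol, all whole numbers, and TPM values, which divide by transcript length. The submitters' processing notes name bcl2fastq, kallisto 0.46.1 and build GRCh38. How transcripts were summed to genes is not given in the sources used here. miRNA libraries were not used.

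After filterByExpr and TMM scaling, the counts entered edgeR's quasi-likelihood F test (edgeR 4.0.16, R 4.3.3) with the group as the only term. Benjamini-Hochberg adjustment ran over all genes tested, at 0.05, and each SE was taken as |log2 fold change| over √F. Alternatives used limma 3.58.1 and DESeq2 1.42.0, other scalings, log2(TPM + 1) or log2(TPM + 0.1), no filter, a replicate block and each library left out. Beside the members, the text names per list up to 2 passing genes per direction, by p, or the gene of lowest p where none passed, and the 2 genes nearest to each member in log2 CPM (prior count 2). Estimated counts carry no molecular identifiers. Same-numbered DMSO and CAPE libraries were not taken as pairs. Items withheld for evaluation are not reported here.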

Additional observations from a re-analysis of the deposited data

How the results depend on the processing

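The count of all genes called, 265 in the reported fit (203 higher, 62 lower), was 856 with DESeq2 (529 higher, 327 lower), 5592 with limma and quality weights (2915 higher, 2677 lower, DMSO 3 weighted 0.0200 against 2.02 to 2.46), 130 on log2(TPM + 1), 96 on log2(TPM + 0.1), 64 on log2(TPM + 1) with no filter, and 0 to 5731 with 1 library left out. The count of members called was 5 with quality weights and 0 to 5 with 1 library left out, the 5 being without DMSO 3, of 7 tested there. The count of listed genes called was 14 of 101 tested in the reported fit, where 1.95% of all genes passed. It was 28 with DESeq2 and 65 with quality weights, against 5.43% and 41.1% of all genes. It was 8 on unfiltered log2(TPM + 1) and 0 to 69 with 1 library left out. The 69, of 102 tested, came without DMSO 3, where 41.2% of all genes passed. Leaving out CAPE 1 or CAPE 3 left no gene called in edgeR's test, against 1178 and 1099 at unadjusted p below 0.05. With the replicate block, edgeR called 0 genes, 0 members and 0 listed genes (1384 genes at an unadjusted p under 0.05). Same-numbered libraries had correlations of -0.194, 0.14 and -0.00853, and not every library correlated best with its own number. These were taken on values centred on the mean of only 3 libraries per group, with DMSO 3 apart. They therefore cannot decide whether same-numbered libraries shared a culture or batch.

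ATF4 turned to 0.12 with upper-quartile factors, 0.28 with library totals only, 0.52 with quality weights, 0.44 in each of the 3 TPM fits and 0.11 with the replicate block, and ran from -0.26 to 0.52 with 1 library left out. CEBPB turned to 0.17 with quality weights and ran from -0.93 to 0.18 with 1 library left out. ATF5 passed with quality weights (-0.41) and ran from -1.27 to -0.40 with 1 left out. With the block ATF3 (2.80), DDIT3 (2.20) and CEBPG (1.11) no longer passed. With 1 library left out ATF3 ran from 2.58 to 3.02, DDIT3 from 2.11 to 2.32 and CEBPG from 0.97 to 1.16. CEBPG also missed the threshold with upper-quartile factors (1.18), library totals (1.25), no filter (1.07), log2(TPM + 1) (1.39, and 1.39 unfiltered) and log2(TPM + 0.1) (1.48). Library totals moved the median of all genes to 0.17 and the TPM fits to between 0.31 and 0.38, so part of each shift is shared by all genes. The cause of the other changes was not tested. Among the other genes described, PPP1R15A passed in 8, ADM2 in 12, STC2 in 7, FOSB in 7, FOS in 9, EGLN3 in 6 and JUN in 8 of 16 alternatives.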
